A study of Homo sapiens with 41 samples.

Results

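Elongin A occupancy was examined at 10 small RNA genes that are transcribed by RNA polymerase III. These are 5 genes for U6 (RNU6-1, RNU6-2, RNU6-7, RNU6-8 and RNU6-9), RNU6ATAC, RN7SK, RMRP, RPPH1 and RN7SL1, out of 64477 gene entries in the annotation. The genes were named from their known promoter class, and every Elongin A peak that came within 1 kb of one of them was taken. This gave 5 of the 11244 peaks in the 3 deposited lists. All 5 lay near 4 of the genes, RNU6-7, RNU6-8, RPPH1 and RN7SL1, and the other 6 genes had no peak within 1 kb in any list.

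The series comprises 41 samples, and 7 of them lie behind the peak lists. All 7 came from wild-type DLD1 cells, an established human line from a colorectal tumour, without siRNA or drug, and no genetic change is named in the labels. CUT&RUN, in which an antibody brings a nuclease to its target so that the DNA around it is released and sequenced, was performed on formaldehyde-fixed cells with a goat antibody against Elongin A (2 replicates, with 1 goat IgG control) or with a mouse antibody (1 sample, with 1 mouse IgG control). ChIP-seq was performed with 1 Elongin A sample and 1 input control. The goat antibody list held 8720 peaks, the mouse antibody list 2338 peaks and the ChIP-seq list 186 peaks. Each list is 1 set of calls against its own control, and the goat list does not separate its 2 replicates, so no value below has a replicate error and no difference between genes was tested. Read totals are not in the lists, so the depth is unknown, and the lack of a peak means only that none was called. DLD1 is 1 cell line. Of 10 colon epithelial marker genes, 5 had a goat antibody peak within 1 kb, beside 21.7% of protein-coding genes, and 3 had a mouse antibody peak. They were KRT8 (7.07-fold with the goat and 5.09-fold with the mouse antibody), KRT18 (6.26-fold, goat only), EPCAM (5.42-fold, goat only), CDX2 (4.32-fold and 4.82-fold) and CDH1 (4.90-fold with the goat antibody, and a mouse antibody peak weaker than that of KRT8), while KRT19, KRT20, CDX1, VIL1 and LGALS4 had none. Of 4 markers of other cell types, the leukocyte gene PTPRC had peaks with both antibodies (3.46-fold and 5.55-fold), the latter above every colon marker in the mouse list, and COL1A1, ALB and GFAP had none.

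Elongin A is the transcriptionally active subunit of Elongin, a factor that stimulates elongation by RNA polymerase II (RNAPII) in vitro. In DLD1 cells, the authors saw no dramatic effect of Elongin A depletion on RNAPII elongation rates. The genes studied here are instead read by RNA polymerase III, which makes short noncoding RNAs and stops at a run of T. In a type 3 promoter, the elements lie upstream of the gene. The SNAPc complex binds a proximal sequence element, a TATA box next to it directs RNA polymerase III, and a distal element farther upstream often holds an octamer that binds OCT1. The RNAPII small nuclear RNA genes share the proximal element and SNAPc but lack the TATA box, which makes them a natural contrast. RN7SL1 differs from the rest in that much of its promoter lies inside the gene.

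These elements were visible in the sequence before the start of each gene. The stretches below run from 80 bases before the gene to the first 20 bases of it, on the gene's strand of GRCh37, and capitals mark the letters TNACC (a short core chosen for the proximal element) where they start between 75 and 50 bases before the gene, and TATA or AAATA (chosen for the TATA box) where they start between 40 and 20 bases before it. The same letters elsewhere are left in lower case. They show the U6 gene used in many expression vectors, the U6 pair with peaks nearby, 3 other type 3 genes, the 7SL gene, and RNU1-1 and RNU5A-1 as RNAPII genes.
RNU6-1, chr15:68132364-68132463, minus strand: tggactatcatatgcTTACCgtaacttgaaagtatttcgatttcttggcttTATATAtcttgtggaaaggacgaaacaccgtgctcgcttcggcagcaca
RNU6-7, chr14:32671171-32671270, plus strand: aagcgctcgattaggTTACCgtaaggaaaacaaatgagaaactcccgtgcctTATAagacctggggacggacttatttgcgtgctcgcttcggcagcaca
RNU6-8, chr14:32672456-32672555, minus strand: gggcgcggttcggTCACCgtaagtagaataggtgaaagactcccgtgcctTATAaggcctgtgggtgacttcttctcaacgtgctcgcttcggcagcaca
RN7SK, chr6:52860339-52860438, plus strand: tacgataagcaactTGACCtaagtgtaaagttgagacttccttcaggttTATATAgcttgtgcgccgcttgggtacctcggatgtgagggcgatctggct
RMRP, chr9:35657995-35658094, minus strand: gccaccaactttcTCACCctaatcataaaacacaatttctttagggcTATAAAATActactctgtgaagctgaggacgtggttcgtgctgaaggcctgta
RPPH1, chr14:20811543-20811642, minus strand: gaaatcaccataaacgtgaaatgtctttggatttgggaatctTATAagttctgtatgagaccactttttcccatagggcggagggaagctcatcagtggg
RN7SL1, chr14:50053218-50053317, plus strand: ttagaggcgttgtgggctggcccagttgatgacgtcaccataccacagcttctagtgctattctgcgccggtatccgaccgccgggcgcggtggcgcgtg
RNU1-1, chr1:16840761-16840860, minus strand: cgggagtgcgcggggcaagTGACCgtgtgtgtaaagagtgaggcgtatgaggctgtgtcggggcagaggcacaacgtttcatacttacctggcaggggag
RNU5A-1, chr15:65588309-65588408, plus strand: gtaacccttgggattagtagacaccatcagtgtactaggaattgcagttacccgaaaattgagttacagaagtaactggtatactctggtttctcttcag

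TATA or AAATA started between 40 and 20 bases before the gene in 9 of the 10 RNA polymerase III genes, with RN7SL1 as the exception. It did so in 2 of 24 RNAPII small RNA genes (RNVU1-7 and RNU7-1) and in 8.22% of 35116 RefSeq promoters (GRCh38). TNACC started between 75 and 50 bases before the gene in 7 of the 10 genes, in 18 of the 24 RNAPII genes and in 6.93% of RefSeq promoters. It was not in that window in RNU6-9, RPPH1 or RN7SL1. In the RPPH1 stretch above, however, TCACC starts just before the window, in lower case. The start of RPPH1 is approximate, so whether it is counted here depends on where the gene was placed. Both sets of letters on the coding strand were present in 7 of the 10 genes, in 2 of the 24 and in 0.692% of RefSeq promoters. The octamer ATTTGCAT, on either strand in the 250 bases before the gene, was in 6 of the 10 genes (RNU6-1, RNU6-7, RNU6-8, RNU6-9, RMRP and RPPH1), in 8 of the 24 RNAPII genes and in 1.63% of RefSeq promoters. These letters were chosen after the sequences were seen, and a match is a description rather than a bound site. The upstream letters did not separate the U6 genes with a peak from RNU6-1, which had all 3 matches and no peak in any list.

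The annotation places 8 of the genes by symbol. RN7SL1 was placed inside RPS29, on chromosome 14 from 50053298 to 50053594, by a match of 293 of the 297 bases of RN7SL2. RPPH1 was placed on chromosome 14 from 20811259 to 20811562 by alignment of the related RPPH1-3P to a noncoding gene beside PARP2, so its start is approximate, and distances from it are too. The RNU6-1 gene is on chromosome 15, RNU6-2 and RNU6-9 are on chromosome 19, RNU6-7 and RNU6-8 on chromosome 14, RNU6ATAC and RMRP on chromosome 9, and RN7SK on chromosome 6.

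With the goat antibody, 3 of the 10 genes had a peak within 1 kb, or 30.0%. By the same rule, 21.7% of 20175 protein-coding genes, 9.9% of all genes and 2.61% of 8497 annotated small RNA genes had one, and 10.1% of protein-coding genes had a goat antibody peak within 1 kb of a TSS. The share of the 10 genes was above that of annotated small RNA genes, many of which are pseudogenes. It was also above the TSS share of protein-coding genes, which covers a more similar length, and nearer to their whole-gene share. With 3 of 10 genes and no test, it does not set the 10 genes apart from protein-coding genes. With the mouse antibody, 0 of the 10 genes had a peak, beside 7.79% of protein-coding genes (3.31% at a TSS), 3.54% of all genes and 0.836% of small RNA genes. In the ChIP-seq list, 1 of the 10 genes had a peak, beside 0.783% of protein-coding genes (0.606% at a TSS), 0.382% of all genes and 0.365% of small RNA genes. No gene of the 10 had a peak in more than 1 list.

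The RNAPII small RNA genes differed from this in each list. Of 24 such genes that the annotation places (U1, U2, U4, U5, U4atac and U7, and the snoRNA genes U3, U8 and U13, which have their own promoters), 19 had a goat antibody peak, 15 a mouse antibody peak and 16 a ChIP-seq peak, and 14 had a peak in all 3 lists. The highest fold enrichment within 1 kb had a median over these genes of 8.41 in the goat list, 4.66 in the mouse list and 16.3 in the ChIP-seq list, counting a gene without a peak as 0. For the 10 RNA polymerase III genes the median was 0.0 in each list. The highest goat value of the 10 genes, 7.83 at RN7SL1, was below the RNAPII median of that list, and so was the ChIP-seq value of 8.76 at RPPH1 in its own. These counts describe single lists, and neighbouring genes such as RNU4-1 and RNU4-2 share a peak in the goat list. In the same lists, RNU2-2P had the highest ChIP-seq fold enrichment of all 186 peaks (47.1) and RNU1-1 the highest mouse antibody value of all 2338 peaks (12.1). The RNU2-2P summit was 244 bp from a TSS of the protein-coding gene WDR74, and occupancy of the gene and of that promoter cannot be told apart there. The 32 bases at that RNU1-1 summit occur 4 times in the genome, so its reads may come from other copies.

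**Figure D1:**
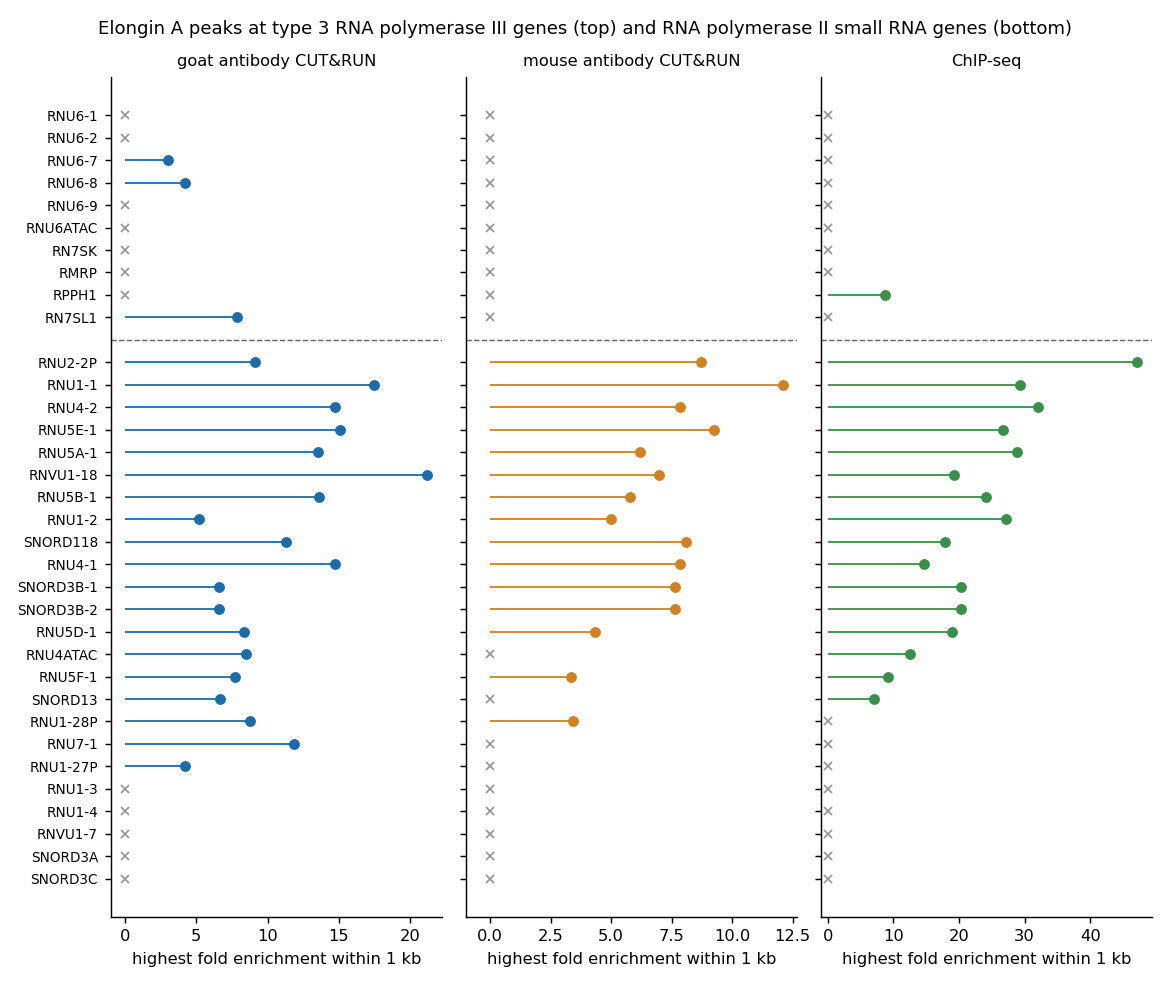
Highest fold enrichment (a ratio over the authors' control background, linear axis) of an Elongin A peak within 1 kb of each gene, with 1 panel per peak list and its own axis. Circles are genes with a peak and grey crosses at 0 are genes without one. Above the dashed line, 3, 0 and 1 of the 10 RNA polymerase III genes have a circle, and below it 19, 15 and 16 of the 24 RNAPII genes do.

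U6 pairs with U2 and forms the catalytic centre of the spliceosome. The 5 U6 genes had near-identical bodies, with 106 or 107 of 107 bases shared in every pair, but different upstream sequence. Over the 250 bases before the gene, RNU6-7 and RNU6-8 shared 88.4% of bases, and the other 9 pairs shared between 56.8% and 63.6%. RNU6-7 (chr14:32671251-32671357) and RNU6-8 (chr14:32672369-32672475) face each other with 1011 bp between them, and no protein-coding TSS lies within 100 kb of either, since the nearest, that of ARHGAP5, is 124736 bp and 125854 bp away.

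Each gene of this pair had 1 goat antibody peak, and each peak lay upstream of its gene, on the outer side of the pair. The RNU6-8 peak was 226 bp wide, began 395 bp from the gene and had its summit 480 bp upstream. Its fold enrichment was 4.24 and its −log10 q-value 2.69, which ranked it 4543 of 8720 by fold enrichment. The RNU6-7 peak was 297 bp wide, began 825 bp from the gene and had its summit 1012 bp upstream. Its fold enrichment was 3.04, at rank 7930, and its −log10 q-value of 1.31 was close to the lowest in the list, 1.30. Neither peak reached its gene or the proximal elements printed above. The 32 bases at each summit, with the summit base in capitals, occurred once in the genome.
RNU6-7 peak summit, chr14:32670223-32670254, plus strand: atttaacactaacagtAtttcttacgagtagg
RNU6-8 peak summit, chr14:32672939-32672970, plus strand: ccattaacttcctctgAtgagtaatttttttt
The mouse antibody list had no peak within 100 kb of the pair. Its nearest, 125 kb from RNU6-7, lay 491 bp from the ARHGAP5 TSS, with a fold enrichment of 5.18.

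RNU6-1, RNU6-2 and RNU6-9 had no peak within 1 kb in any list. Around RNU6-1, which has no protein-coding TSS within 10 kb, the nearest goat peak was 693 kb away, in SMAD3. RNU6-2 and RNU6-9 lie head to head with protein-coding genes, with the TSS of TMEM259 at 399 bp from RNU6-2 and that of MED16, a Mediator subunit gene, at 266 bp from RNU6-9. The nearest goat peak to RNU6-2 was 4.37 kb away, inside TMEM259 and 347 bp from another of its annotated starts, with a fold enrichment of 3.16. The nearest to RNU6-9 was 23.7 kb away. RNU6ATAC, which takes the place of U6 in the minor spliceosome, had its nearest goat peak 512 kb away.

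RN7SK encodes 7SK, the RNA that holds the elongation kinase P-TEFb in an inactive complex, and RMRP encodes the RNA of RNase MRP, which processes ribosomal RNA precursors. Neither gene had a peak within 1 kb. Both have a protein-coding TSS in their upstream flank, GSTA4 at 337 bp from RN7SK and CCDC107 at 273 bp from RMRP, and those starts had no peak within 1 kb either. The nearest goat peak to RN7SK was 4.76 kb upstream, inside GSTA4, with a fold enrichment of 2.78. For RMRP, the nearest goat and mouse peaks were at 5.17 kb and 5.18 kb on the downstream side, with fold enrichments of 2.22 and 4.52, and the goat peak was among the weakest in its list, at rank 8712 of 8720.

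RPPH1 encodes the RNA of RNase P, which trims the leader of tRNA precursors. It was the only one of the 10 genes with a ChIP-seq peak. That peak was 255 bp wide and lay inside the placed gene, with its summit 158 bp after the placed start. Its fold enrichment was 8.76 and its −log10 q-value 13.7, which ranked it 107 of 186, below the list's median fold enrichment of 9.99. PARP2 starts 212 bp from RPPH1 in the other direction, and the summit was 370 bp from that TSS. Both CUT&RUN lists lacked a peak there, and the nearest goat peak was 15.4 kb away. Occupancy of RPPH1 and of the PARP2 promoter cannot be told apart at this distance. The 32 bases at the summit, from a body in which every 32-base window occurs once, were also found once.
RPPH1 peak summit, chr14:20811388-20811419, plus strand: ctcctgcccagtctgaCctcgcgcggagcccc

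RN7SL1 encodes 7SL, the RNA of the signal recognition particle. It had 2 goat antibody peaks. The stronger was 352 bp wide and overlapped the gene, with its summit 253 bp after the start, a fold enrichment of 7.83 and a −log10 q-value of 13.7, at rank 260 of 8720. The weaker was 465 bp wide and ended 161 bp before the gene, with its summit 264 bp upstream, a fold enrichment of 5.19 and a −log10 q-value of 6.33. RN7SL1 lies head to head with a start of RPS29, a ribosomal protein gene, which is 200 bp away. The weaker summit was 60 bp from an RPS29 TSS. The stronger summit lay inside RPS29, 453 bp from an RPS29 TSS. Occupancy of RN7SL1 and of RPS29 cannot be told apart at these distances. The 32 bases at each RN7SL1 summit occur 3 times in the genome, so reads there can come from other copies, and which copy gave them was not tested.
RN7SL1 weaker peak summit, chr14:50053018-50053049, plus strand: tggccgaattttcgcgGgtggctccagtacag
Without peaks whose summit sequence is repeated, 2 of the 10 genes had a goat antibody peak, RNU6-7 and RNU6-8. RN7SL2 and RN7SL3, the other 7SL genes, had no peak within 1 kb in any list.

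**Figure D2:**
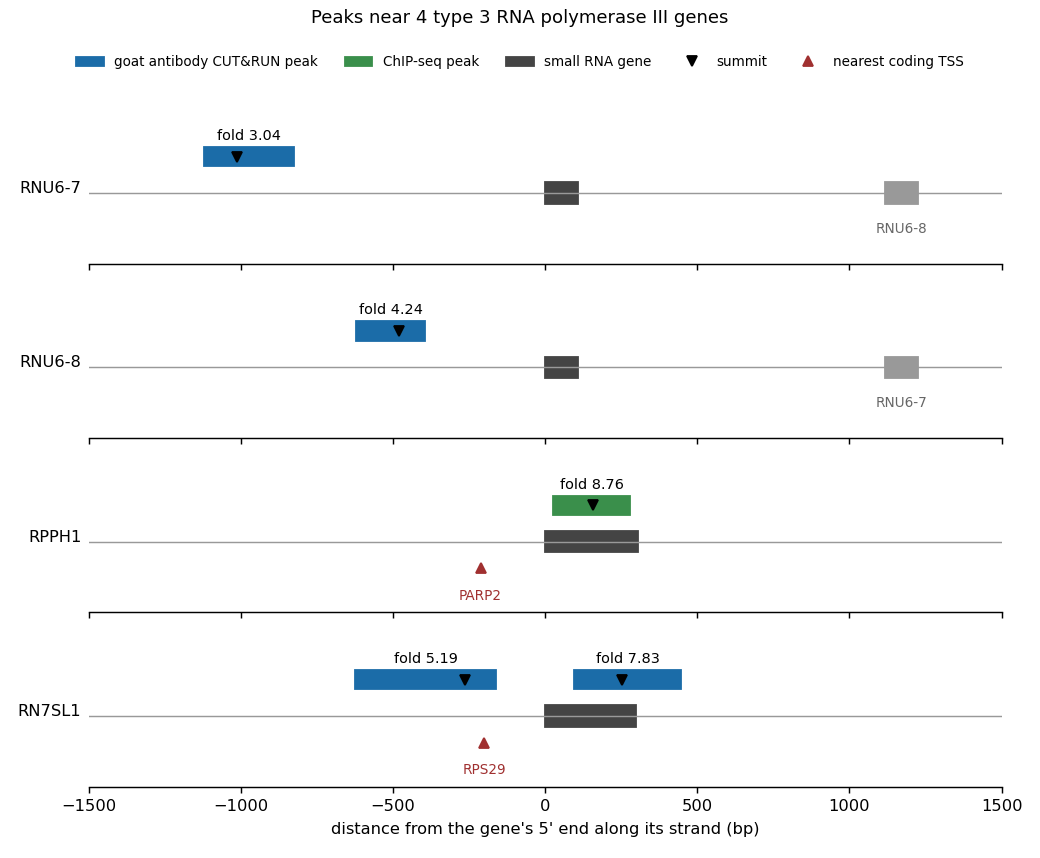
Peaks within 1 kb of RNU6-7, RNU6-8, RPPH1 and RN7SL1, drawn to scale by distance in bp from the gene's 5′ end along its strand. Blue bars are goat antibody CUT&RUN peaks, the green bar is the ChIP-seq peak, black triangles are summits, dark boxes are the genes, grey boxes the partner U6 gene and red triangles the nearest protein-coding TSS. The U6 peaks stay upstream of their genes, while the RPPH1 peak and the stronger RN7SL1 peak (7.83-fold) overlap theirs.

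In all, 6 of the 10 genes had a protein-coding TSS within 1 kb, at 200 to 399 bp, and in all 6 the coding gene ran in the opposite direction. Of these 6, RN7SL1 had goat antibody peaks and RPPH1 a ChIP-seq peak. Of the 4 genes without such a neighbour, RNU6-7 and RNU6-8 had goat antibody peaks. Among the RNAPII small RNA genes, 3 of 24 had a protein-coding TSS within 1 kb, and 16 of the 21 without one had a goat antibody peak.

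The strongest summits of the RNAPII genes lay mostly past the gene. In the ChIP-seq list the strongest summit was beyond the gene's end in 15 of 16 genes and inside it in 1, at a median of 235.5 bp from the 5′ end, and none was upstream. In the goat list it was beyond the end in 16 of 19 genes, inside in 1 and upstream in 2, at a median of 399 bp. In the mouse list it was beyond the end in 10 of 15 genes, inside in 1 and upstream in 4, and 3 of these peaks overlapped their gene. Neighbouring genes can share a strongest peak, which is then counted for each. The distinct peaks were 15 in the ChIP-seq list, 17 in the goat list and 13 in the mouse list. For example, the goat summit 1645 bp from the RNU4-1 start is also the RNU4-2 summit, at 311 bp. For the RNA polymerase III genes, the strongest goat summit was upstream at RNU6-7 and RNU6-8 and inside the gene at RN7SL1. RN7SL1 is 297 bp long and RPPH1 304 bp, beside 63 to 191 bp for the RNAPII genes other than U3. A summit at the same offset can thus be inside a longer gene and past the end of a shorter one. The RPPH1 ChIP-seq summit, at 158 bp, was nearer to the 5′ end than the lowest RNAPII value in that list, 182 bp. The peaks also differed in width. Goat antibody peaks near the 10 genes were 226 to 465 bp wide, and those near RNAPII genes had a median width of 1400 bp, beside 362 bp over the whole list.

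**Figure D3:**
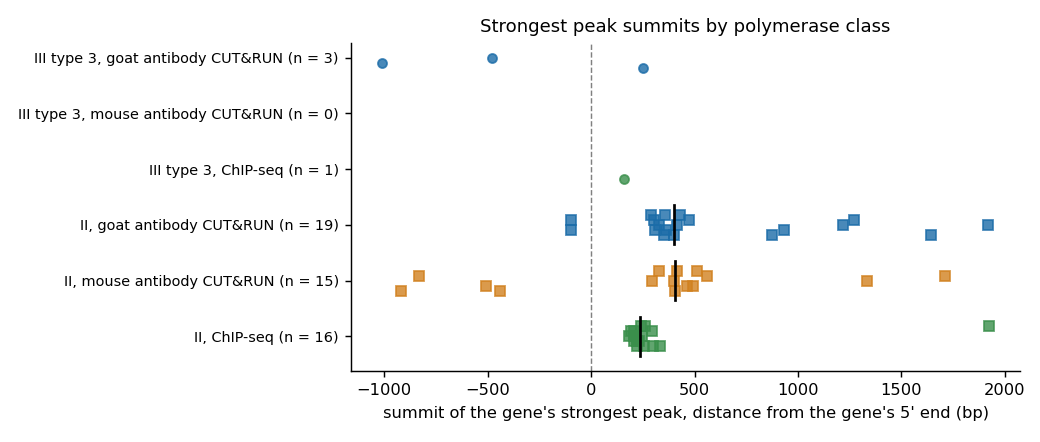
Distance in bp from each gene's 5′ end to the summit of its strongest peak within 1 kb, with negative values upstream. Each point is 1 gene, rows are the gene class (III type 3 or II) and the peak list, and black bars are medians. The 4 points of the RNA polymerase III genes run from 1012 bp upstream to 253 bp downstream, and the RNAPII points in the ChIP-seq row cluster around 235.5 bp.

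Reads from repeated sequence cannot be placed on 1 gene, and multicopy sequence was therefore counted. None of the 32-base windows inside the 5 U6 genes or RN7SL1 occurs once in the genome. The share was 11.8% in RN7SK and 17.9% in RNU6ATAC, and all windows occur once in RMRP and RPPH1. In the 1 kb on either side, however, 75.3% (RNU6-9) to 99.3% (RNU6-1) of windows occur once in all 10 genes. Among the RNAPII genes, 12 had flanks at least as rich in single-copy windows as RNU6-9, and all 12 had a goat antibody peak, 9 a mouse antibody peak and 11 a ChIP-seq peak. The 5 RNAPII genes without a peak in any list, RNU1-3, RNU1-4, RNVU1-7, SNORD3A and SNORD3C, had flanks in which no window occurs once. Flanks of this kind did not go with a lack of peaks in every gene. RNU1-27P and RNU1-28P, also at 0%, had goat antibody peaks of 4.23-fold and 8.75-fold, and SNORD3B-1 and SNORD3B-2, at 1.86% and 3.25%, shared a peak in each of the 3 lists, of 20.4-fold in the ChIP-seq list. How mapping of repeated reads bears on the lists was not tested.

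**Figure D4:**
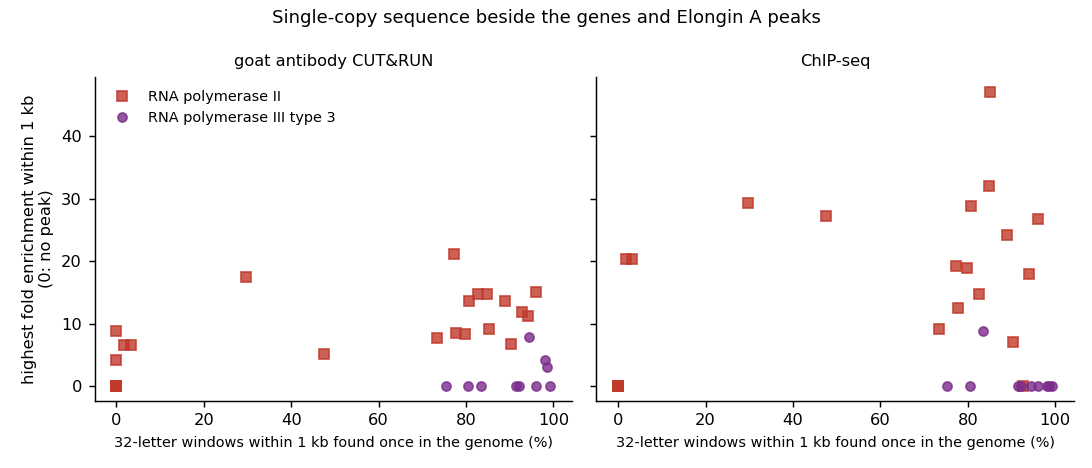
Highest fold enrichment within 1 kb (linear axis, 0 for no peak) against the share of 32-base windows in the 1 kb flanks that occur once in the genome, for the goat antibody list and the ChIP-seq list. Squares are RNAPII small RNA genes and circles the 10 RNA polymerase III genes. All circles lie at 75.3% or more, where 7 of 10 in the goat list and 9 of 10 in the ChIP-seq list are at 0.

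The share of the 10 genes with a goat antibody peak rose with the distance allowed. It was 1 of 10 for a peak overlapping the gene, 2 within 0.5 kb, 3 within 1 and 2 kb, 5 within 5 kb, 6 within 10 kb, 7 within 20 kb and 8 within 50 kb. For the RNAPII genes it was 54.2% by overlap, 79.2% within 1 to 20 kb and 83.3% within 50 kb. Protein-coding genes went from 18.6% by overlap to 45.9% within 50 kb. In the mouse list, the only one of the 10 genes within 50 kb of a peak was RMRP. In the ChIP-seq list, the nearest peak to the other 9 genes was at least 600342 bp away.

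**Figure D5:**
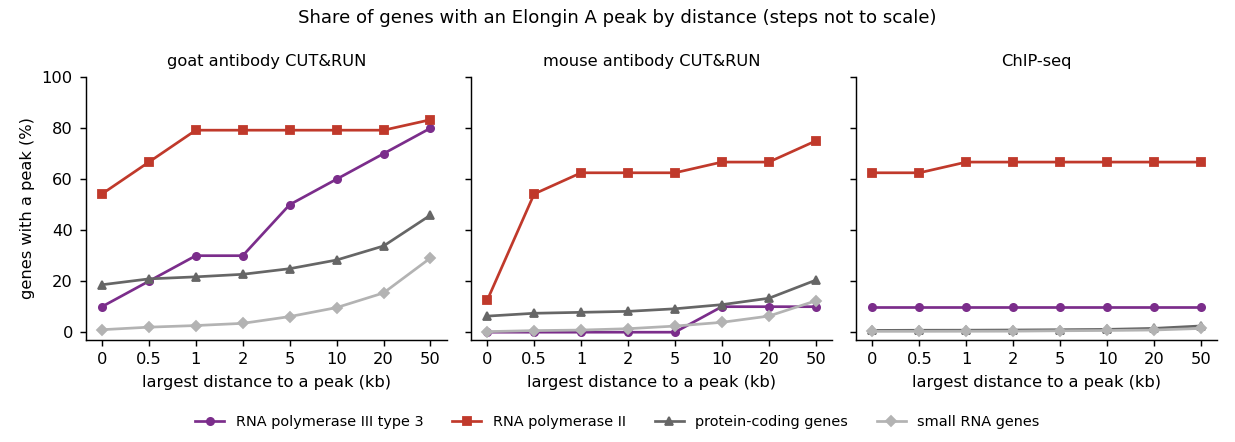
Percent of genes with an Elongin A peak (vertical axis) within a given distance in kb (horizontal axis, steps not to scale), with 1 panel per list. Purple circles are the 10 RNA polymerase III genes, red squares the 24 RNAPII small RNA genes, dark triangles protein-coding genes and light diamonds all annotated small RNA genes. In the goat panel the purple line climbs from 1 to 8 of 10 genes between overlap and 50 kb, while the red line is level at 79.2% from 1 kb to 20 kb.

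Of 11 other RNA polymerase III small RNA genes, 3 (27.3%) had a goat antibody peak, beside 30.0% of the 10 genes and 2.61% of annotated small RNA genes. None had a mouse antibody or ChIP-seq peak, beside 0.836% and 0.365% of annotated small RNA genes. The 11 genes include RN7SL2 and RN7SL3, which are 7SL genes like RN7SL1. The promoter letters were not counted in the 11 genes, so they are not a contrast of promoter class. RNY5, a Y RNA gene, had a peak that overlapped it, with a fold enrichment of 6.32. The vault RNA genes VTRNA1-1 and VTRNA1-2 had peaks of 3.31 and 3.68. As with the U6 pair, those of the vault RNA genes lay upstream, with summits at 342 bp and 309 bp.

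Pseudogenes were counted for U6, U6atac, 7SK and 7SL, beside 2.61% of annotated small RNA genes with a goat antibody peak and 0.836% with a mouse antibody peak. Of 1316 U6 pseudogenes, 6 (0.456%) had a goat antibody peak and 3 a mouse antibody peak within 1 kb. None of 292 pseudogenes of 7SK had a peak in any list. Of 845 pseudogenes of 7SL, 11 (1.3%) had a goat antibody peak and 2 a mouse antibody peak, and 1 of 41 U6atac pseudogenes had a goat antibody peak. In the ChIP-seq list no pseudogene of the 4 families had a peak.

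The genes for RNA polymerase III and its factors are themselves protein-coding and read by RNAPII. Of 32 such genes, 11 (34.4%) had a goat antibody peak and 3 a mouse antibody peak within 1 kb, and none had a ChIP-seq peak, beside 21.7%, 7.79% and 0.783% of protein-coding genes. The strongest goat values were at POLR3E (9.24-fold) and GTF3A (7.67-fold), the latter encoding the factor TFIIIA of the 5S rRNA genes. They were followed by POLR1C (7.49-fold), SNAPC5 (6.12-fold) and POLR1D (6.02-fold). POLR3E, POLR1C and POLR1D are subunit genes, and SNAPC5 encodes a subunit of SNAPc. SNAPC2, also of SNAPc, had peaks with both antibodies (2.84-fold with the goat and 3.81-fold with the mouse antibody), as did SNAPC5 (4.88-fold with the mouse antibody). BRF2, the TFIIB-related factor particular to type 3 promoters, had none.

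Among 34 genes for proteins that bind the small RNAs, 9 (26.5%) had a goat antibody peak, 3 (8.82%) a mouse antibody peak and 1 (2.94%) a ChIP-seq peak. The shares over protein-coding genes were 21.7%, 7.79% and 0.783%, and no difference was tested. The strongest goat values were 7.18-fold at POP4, a protein of RNase P and RNase MRP, and 6.70-fold at SRP72, of the signal recognition particle. HEXIM1, which inhibits P-TEFb when bound to 7SK, had a value of 5.99. LSM4 (5.76-fold) and POP5 (5.09-fold) came next, the former in the ring of proteins that holds U6. MEPCE, which caps 7SK, had peaks of 4.19 with the goat antibody and 5.52 with the mouse antibody. The ChIP-seq peak was at LSM5, with a fold enrichment of 11.5.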

How the data were processed

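Only the 3 Elongin A peak lists were used. Bowtie2 alignment of the paired reads to hg19, removal of duplicates with Picard and peak calling with MACS2 at default settings were done by the authors. No mapping quality filter is given in the sources used here. The deposited fold enrichment of a peak is a ratio over the authors' control background, and the deposited −log10 q-value comes from the caller. The deposited −log10 p-value and score were not used. Lists were read as deposited, with positions counted from 1.

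Genes came from GENCODE 44 on GRCh37. A peak was near a gene when the gap was at most 1 kb. Exact copies of 32-base windows were counted on both strands. On simulated data, 200 of 200 genes were classed correctly as having a planted peak within 1 kb or not. For 10 of 10 sequences checked, the copy count equalled that of a direct search. Python 3.11.15, pandas 2.3.3, pysam 0.24.0, biopython 1.88 and matplotlib 3.10.9 were used.

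The genes and lists were chosen with earlier results of these data known. Named were all 10 genes, the strongest members of the other lists (at most 5 a list) and the nearest coding genes. A planned ranking of RNAPII genes by likeness is not given, since the median of the 10 genes is 0.0 in each list and any gene without a peak then scores as alike. Other genes and peaks named, such as the distant nearest peaks, were chosen after their values were seen. Of 28 RNAPII genes listed, 24 were placed. The other alternatives were distances of 500 bp and 2 kb, overlap, summits, q-values under 0.01 and 0.001, a fold enrichment of at least 5, and subsets of genes or peaks. RNA-seq, 4sU-seq and RNAPII data were not analysed here. The sequence at 1 peak summit is not reported here.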

Additional observations from a re-analysis of the deposited data

How the results depend on the processing

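Of 71 recomputed values of results above 0, 56 kept the reported value or stayed within 1.5 times of a reported count. This tally does not measure stability. The ChIP-seq values of the 10 genes all come from the RPPH1 peak, which overlaps its gene, so few alternatives could change them. A goat antibody count of 2 genes in place of 3 also fell within that range. With the goat antibody, the 3 genes with a peak became 1 when the peak had to overlap the gene, when the q-value had to be under 0.001, or when the fold enrichment had to be at least 5. The 4 peaks became 1 by overlap and 2 under either of the stricter cuts. The median fold enrichment of these peaks, 4.71, became 5.19 within 500 bp, for summits within 1 kb and at a q-value under 0.01, 7.83 by overlap, 6.51 at a q-value under 0.001 or a fold enrichment of at least 5, and 3.64 for summit sequence found once. Without genes that have a coding TSS within 1 kb, the ChIP-seq count went from 1 to 0, since that removes RPPH1. The RNAPII count in the mouse list went from 15 to 3 by overlap. The mouse count for the 10 genes was also 0 within 2 kb, the only alternative that could have raised it, and no median exists there. It was 1 of 10 within 10 kb. No paired analysis was possible because the goat list holds 1 set of peaks for both replicates, and for the same reason neither replicate could be left out. The depth of each list is unknown.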
